A study of Mus musculus with 18 samples.

Results

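The opposite knee is often taken as the control for an injured one, and these data hold a check of that choice. Cartilage of contralateral knees, taken 7 days after rupture of the anterior cruciate ligament (ACL) in the other leg, was set against cartilage of knees from naïve mice. Samples were chosen by their group labels, with earlier results of these data known. Of the 18 RNA-seq libraries of the series, 9 entered the comparison, 3 contralateral (numbered 13, 14 and 15) and 6 naïve (numbered 7 to 12). All mice were wild-type C57Bl/6J males aged 12 weeks. In the injured mice the right knee received a single 12 N load under isoflurane anaesthesia with buprenorphine as the analgesic, and the left knee was not loaded. Naïve mice had no injury, and the sources used here do not say whether they were given the anaesthetic or the analgesic. A remote effect of the rupture therefore cannot be told apart from effects of those agents, or of a week of changed limb use. Each contralateral library held cartilage of 4 mice. The naïve libraries drew on 6 mice, with 2 knees in a library and left and right knees kept apart. Each of the 6 naïve libraries thus shares mice with another. The labels do not say which libraries share mice, so the tests below treated them as independent, and the naïve spread may be understated. Since the contralateral knee was always the left, limb side and group cannot be told apart either.

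Articular cartilage is made by chondrocytes, which lay down a matrix of type II collagen and aggrecan. Beneath it lie a calcified layer and the subchondral bone, where osteoblasts and osteocytes form and maintain bone and osteoclasts remove it. Osteoclasts arise from myeloid precursors that fuse under the cytokines CSF1 and RANKL. They then acidify the bone surface with a proton pump and digest collagen with enzymes such as cathepsin K. Joint injury acts on all of these cells, and an altered gait or circulating factors could in principle carry an effect to the opposite limb.

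Sequencing depth was similar in both groups. The naïve libraries held between 16074762 and 29407822 estimated counts (median 25084900), and libraries 13, 14 and 15 held 19192253, 21200210 and 29794566. Library 13 stood apart in what it contained. It had 16395 genes with at least 10 counts, against 17323 to 20150 in the naïve libraries, 18608 in library 14 and 19622 in library 15. Its 10 most abundant genes took 42.5% of its counts, compared with 19.6% to 25.9% in the naïve libraries, 18.4% in library 14 and 22.5% in library 15. Mitochondrially encoded transcripts made up 0.914% of library 13, while the naïve libraries lay between 4.87% and 8.68%, library 14 at 6.06% and library 15 at 6.37%. The study left out an ACL library for poor mapping, and which library that was is not given in the sources used here. Counts of calls and most list medians are given with and without it below, as are the fold changes of many of the single genes.

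**Figure D1:**
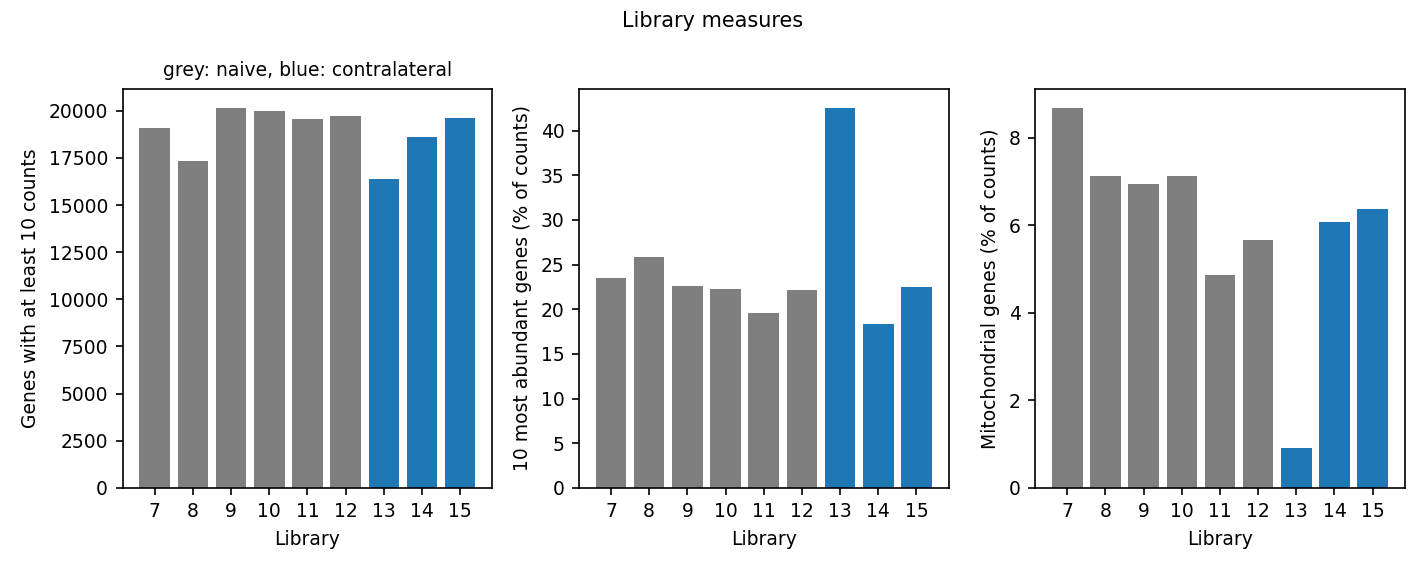
Library measures in the 6 naïve (grey) and 3 contralateral (blue) libraries, 1 bar per library labelled by its number, with a panel each for genes detected, the percent of counts in the 10 most abundant genes and the percent of mitochondrial counts. Library 13 has the fewest genes (16395), the highest top-10 share (42.5%) and the lowest mitochondrial share (0.914%), while libraries 14 and 15 lie within or close to the naïve range.

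The genes that filled library 13 were of several kinds. The pseudogenes Gm12895 and Gm12896 each took 8.23% of its counts, compared with 1.93% to 3.55% in the other 8 libraries. These copies are near identical and share their reads, as do Rn7s1 and Rn7s2, copies of the RNA of the signal recognition particle, so their separate values are uncertain. A ribosomal RNA gene, CT010467.1, took 6.95% (1.17% to 1.85% in the others). Col1a1 and Col1a2, which encode the chains of type I collagen, took 3.65% and 1.89%, against at most 2.17% and 1.30% elsewhere. No pair of the 9 libraries agreed within sampling noise, the lowest chi-square per degree of freedom being 15.9, so none was treated as a library deposited again. The Pearson correlation of log2 CPM (counts of a gene scaled to the library's total), across genes that are not independent replicates, was 0.964 to 0.973 for the 8 pairs with library 13. It was 0.985 to 0.992 among the naïve libraries, 0.989 to 0.994 between them and libraries 14 or 15, and 0.995 between libraries 14 and 15.

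No gene was called different between contralateral and naïve knees by edgeR. The test was edgeR's quasi-likelihood test with Benjamini-Hochberg adjustment over 21262 genes, and a call needed an adjusted p of at most 0.05 with a change of at least 1.5-fold. It called 0 genes higher (0%) and 0 lower (0%), with a lowest adjusted p of 0.248. Without library 13, 0 of 21808 genes were called in either direction (0%), and the lowest adjusted p was 0.712. At an unadjusted p of at most 0.05, edgeR listed 1935 genes as higher (9.1%) and 1285 as lower (6.04%), 3220 in all where evenly spread p-values would list 1063. Without library 13 the lists shrank to 502 higher (2.3%) and 699 lower (3.21%), 1201 in all where evenly spread p-values would list 1090. At that unadjusted p with all libraries, lower genes outnumbered higher ones under upper quartile normalisation (1373 higher and 1637 lower). So they did in limma-voom with quality weights (1105 higher and 1291 lower). Limma-voom called 0 genes with all libraries. DESeq2 called 18 genes higher (0.0847%) and 13 lower (0.0611%), and these are described further on. In the same edgeR fit the injured knees of that day had 2075 genes higher than naïve (9.76%) and 1185 lower (5.57%).

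The fit also bounded how large an unseen difference could be. Its intervals took the libraries as independent, which the naïve ones are not, so they may be too narrow. For 15000 genes (70.55%) the 95% interval of the fold change excluded a change of 2-fold in either direction, and for 15192 (69.66%) it did so without library 13. Among the 9906 genes with a mean of at least 10 CPM, that share was 94.03%. A smaller change of 1.5-fold was excluded for 9300 genes (43.74%). The median standard error of a log2 fold change was 0.197 over all genes and 0.121 over the genes of at least 10 CPM, so differences of modest size in single genes were not resolvable with these libraries.

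The principal components showed the same arrangement. Of the variance among the 9 libraries, 45.3% lay on the first component, on which library 13 was at 69.6 and the other 8 were between -17.9 and -4.15. Libraries 14 and 15, at -6.09 and -4.67, sat among the naïve libraries. The group means differed by 29.4 on the first component (exact two-sided permutation test over 84 splits, p = 0.119) and by 5.16 on the second (p = 0.643), where the smallest p this design can give is 0.0238. With library 13 left out and the components computed again, the differences were 7.20 (p = 0.571) and 13.5 (p = 0.143, both by the exact permutation test over 28 splits). In that setting no p under 0.0714 can be reached.

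**Figure D2:**
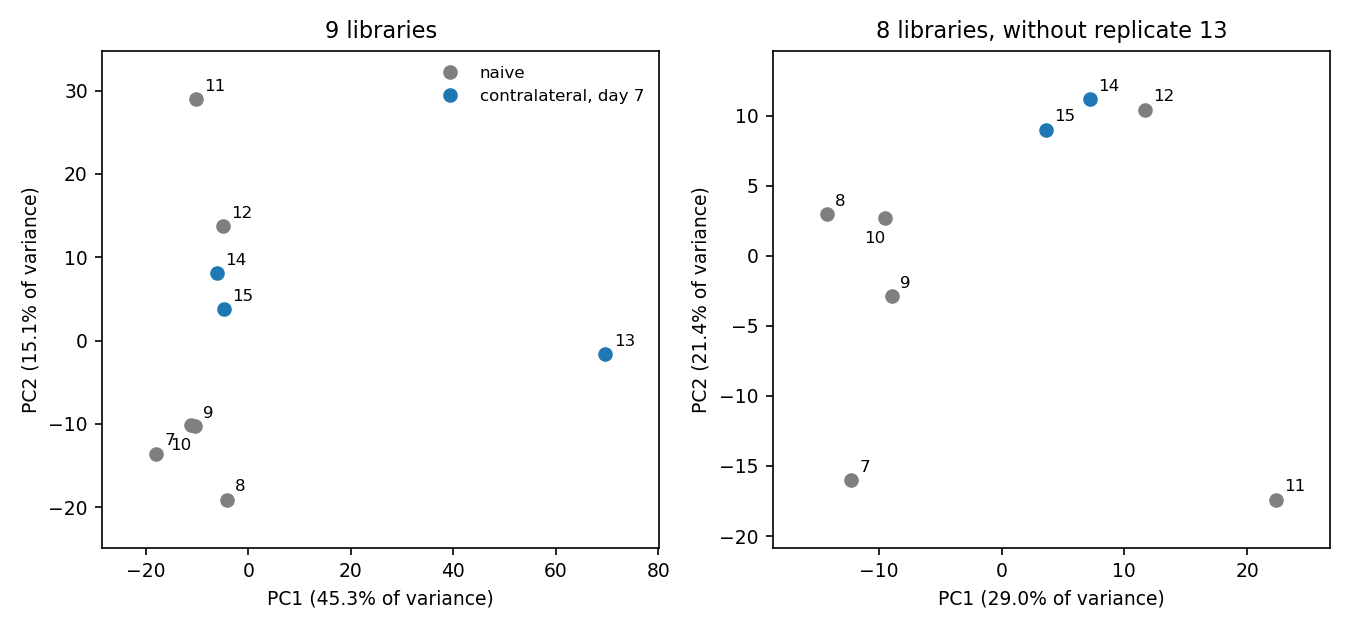
Position of each library on the first 2 principal components of variance-stabilised counts, for all 9 libraries and without library 13, with naïve libraries in grey, contralateral libraries in blue and each point labelled by its number. With all libraries, number 13 lies alone at 69.6 on the first axis; without it, libraries 14 and 15 lie near each other, inside the naïve range on the first axis and at 11.2 and 9.0 on the second, where the highest naïve library is at 10.4.

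Beside these null counts, the genes of the osteoclast had the highest median of the cell type lists. The lists were written with earlier results of these data known, so the counts that follow for this list are a description only. Of its 9 genes, edgeR called 0 and DESeq2 called 1, Ctsk, and all 9 had a log2 fold change above 0, and the median was 0.59 (0.64 without library 13), beside -0.03 and -0.02 over all genes tested. An unadjusted p of at most 0.05 was reached by 6 of the 9 with all libraries, where 9.1% of all genes were listed as higher, and by 8 of the 9 without library 13, where 2.3% were. Groups that did not overlap, with all 3 contralateral libraries above all 6 naïve ones, were seen for 3 of the 9 and for 409 of all genes (1.92%). The 9 genes are read in the same libraries and are all made by osteoclasts, some by other cells too, so they are not independent of each other. Here and below, a change in the number of cells of a type and a change in RNA per cell cannot be told apart in bulk tissue.

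Ctsk (chr3:95499256-95509362, GRCm38) encodes cathepsin K, the protease with which osteoclasts digest type I collagen. It was at 177 to 325 CPM in the naïve libraries, with a median of 257, and at 410, 431 and 392 CPM in libraries 13, 14 and 15. The groups did not overlap, and the 3 contralateral values lay close together. The log2 fold change was 0.72 ± 0.15 (SE), or 1.64-fold with a 95% interval of 1.31 to 2.06, and the adjusted p from edgeR was 0.248. Without library 13 it was 0.72 ± 0.17, with an adjusted p of 0.712.

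Mmp9 (chr2:164940780-164955850) encodes a gelatinase that osteoclasts and neutrophils make in quantity. Its naïve values ran from 600 to 874 CPM around a median of 784, and the contralateral values were 911, 1187 and 1101 CPM. Here too every contralateral library was above every naïve one. The log2 fold change was 0.48 ± 0.14 with library 13 and 0.58 ± 0.15 without it, and it was not called by edgeR (adjusted p 0.248 and 0.712).

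Acp5 encodes tartrate-resistant acid phosphatase, the enzyme by which osteoclasts are stained. It was at 237 to 438 CPM in naïve libraries (median 314) and at 273, 626 and 586 CPM in the contralateral ones. Libraries 14 and 15 were thus above all naïve libraries and library 13 was below their median. The log2 fold change was 0.59 ± 0.24 with all libraries and 0.88 ± 0.21 without library 13 (edgeR adjusted p 0.274 and 0.712). Atp6v0d2, a subunit of the osteoclast proton pump, had libraries 14 and 15 above and library 13 below all naïve ones, at 18.4 to 32.6 CPM in naïve libraries and 16.4, 43.5 and 42.2 CPM in contralateral ones. So did Calcr, the calcitonin receptor, at 1.03 to 1.76 CPM against 0.468, 2.32 and 2.20 CPM.

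The fusion genes followed another order. Ocstamp and Dcstamp encode membrane proteins needed for osteoclast precursors to fuse. Ocstamp was at 3.99 to 7.09 CPM in naïve libraries and at 8.88, 7.67 and 7.37 CPM in contralateral ones, without overlap, with a log2 fold change of 0.62 ± 0.17 (0.54 ± 0.19 without library 13). Dcstamp was at 2.84 to 6.31 CPM against 11.8, 7.76 and 5.95 CPM, so that library 15 fell inside the naïve range. Oscar, a receptor that costimulates osteoclast formation, was at 2.23 to 5.13 CPM against 6.94, 5.66 and 4.83 CPM, again with library 15 inside. Itgb3, the integrin chain with which osteoclasts grip bone and which megakaryocytes also carry, was at 340 to 388 CPM against 498, 372 and 387 CPM. Its 2 lower contralateral values lay within the naïve range, and its log2 fold change was 0.22 ± 0.12 (0.08 ± 0.12 without library 13).

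**Figure D3:**
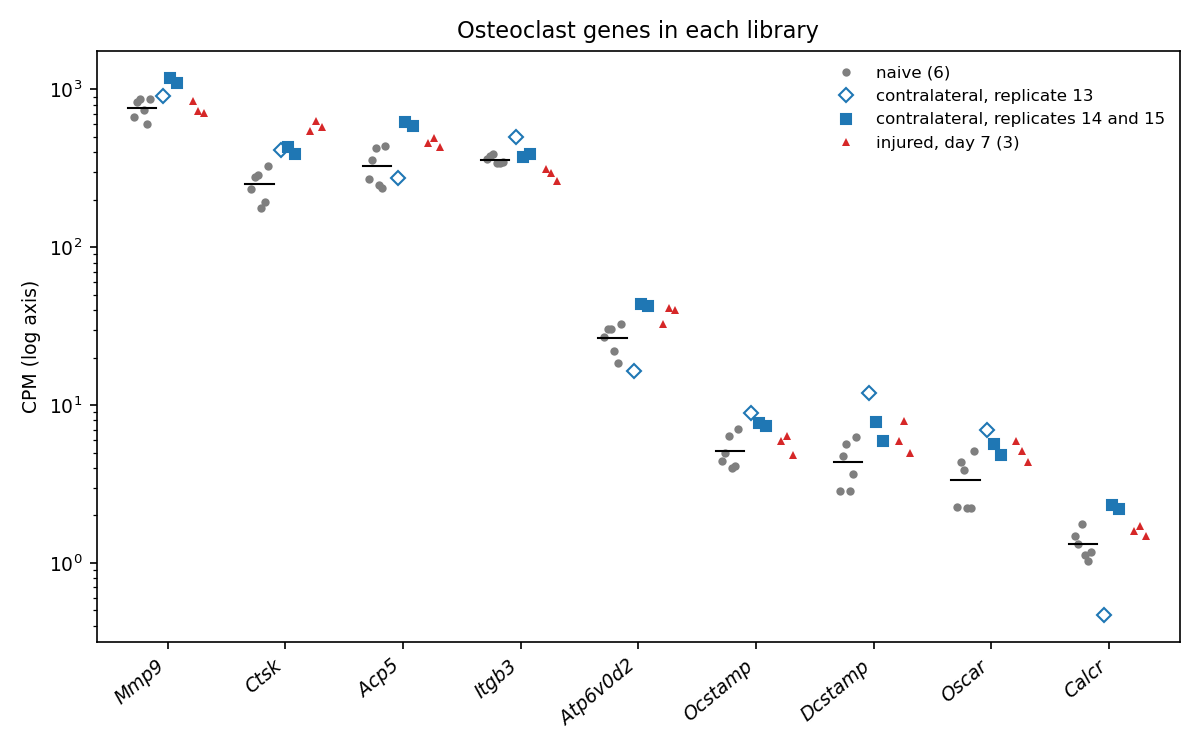
CPM of 9 osteoclast genes on a log axis, 1 point per library, with naïve libraries in grey and contralateral libraries in blue (library 13 as open diamonds), the 3 injured libraries as red triangles and the naïve mean as a line. The 3 contralateral libraries lie above all naïve ones for Mmp9, Ctsk and Ocstamp, while library 13 lies low for Acp5, Atp6v0d2 and Calcr.

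Summed over the 9 osteoclast genes, the level was 1403 to 2035 CPM in naïve libraries (median 1730) and 2135, 2682 and 2529 CPM in libraries 13, 14 and 15. Mmp9 was the gene with the highest CPM in the list. In the injured knees, which were compared with the same naïve libraries, Ctsk was higher than naïve by a log2 fold change of 1.23 ± 0.15 (edgeR adjusted p 1.19e-05), whereas for Mmp9 edgeR's adjusted p was 0.996 with a standard error of 0.14. Over the 9 genes the injured knees had a median log2 fold change of 0.49, with 1 called higher, where 9.76% of all genes were. The median in contralateral knees of day 1 against naïve was -0.28.

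A further 23 genes for acid secretion, ion transport and fusion in osteoclasts were gathered after values of these data had been seen, and they are described without a test. Of these, 21 had a log2 fold change above 0, and the median was 0.26 (0.18 without library 13). Slc9b2 (chr3:135307700-135345387), a sodium and proton exchanger abundant in osteoclasts, was at 10.9 to 16.4 CPM in naïve libraries and at 19.3, 23.5 and 21.1 CPM in contralateral ones. Its log2 fold change was 0.62 ± 0.13 with library 13 and 0.68 ± 0.14 without it. Ckb, the brain type creatine kinase, which supplies energy for acid secretion, was at 48.0 to 76.5 CPM in naïve libraries against 136, 95.2 and 91.8 CPM. Siglec15, a receptor for sialic acid that acts in osteoclast differentiation, was at 1.86 to 3.67 CPM against 7.87, 5.35 and 4.22 CPM. In these 3 genes the groups were fully apart, and for Ckb and Siglec15 library 13 was the highest. Groups without overlap on the higher side were seen for 9 of the 23 and for 1.92% of all genes. EdgeR called 0 of the 23 and DESeq2 called 4, where it called 0.0847% of all genes higher. Since the 23 were gathered after values had been seen, neither count is a fair comparison with all genes.

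Some other members of that group differed less. Tcirg1, the osteoclast form of a proton pump subunit, was at 59.6 to 86.0 CPM in naïve libraries and at 114, 83.4 and 79.0 CPM in contralateral ones, so that 2 of the 3 overlapped. Clcn7, the chloride transporter of the ruffled border, was at 39.0 to 48.0 CPM against 53.8, 49.2 and 52.4 CPM, which do not overlap. Car2, the carbonic anhydrase that supplies protons and is abundant in red cells too, had a log2 fold change of 0.00 ± 0.11 (-0.02 ± 0.12 without library 13). Nfatc1, the master transcription factor of the osteoclast, had one of -0.15 ± 0.15, which was 0.07 ± 0.11 without library 13. Its values were 77.9 to 91.3 CPM in naïve libraries and 49.7, 86.3 and 91.3 CPM in contralateral ones.

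The upstream signals of osteoclast formation, 11 genes chosen in the same way, had a median log2 fold change of 0.07 (0.02 without library 13). Csf1r, the CSF1 receptor of macrophages and osteoclast precursors, was at 154 to 213 CPM in naïve libraries and at 270, 235 and 252 CPM in contralateral ones, and its log2 fold change was 0.35 ± 0.11, or 0.30 ± 0.12 without library 13 (edgeR adjusted p 0.248 and 0.89). Tnfrsf11b encodes osteoprotegerin, the decoy that blocks RANKL. It was at 13.6 to 28.6 CPM in naïve libraries and at 14.3, 12.5 and 16.7 CPM in contralateral ones, with library 14 below the lowest naïve library and the others in the lower portion of the naïve range. Tnfsf11, which encodes RANKL, was at 3.11 to 4.67 CPM against 5.14, 4.46 and 5.95 CPM, and Tnfrsf11a, its receptor RANK, was at 17.2 to 40.5 CPM against 22.3, 23.6 and 22.5 CPM. Their log2 fold changes were 0.39 ± 0.20 and -0.01 ± 0.25, and neither was called.

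The label gives chondrocytes of cartilage as the source, and markers of neighbouring tissues were present in all 9 libraries. The bone, myeloid, macrophage and T cell lists had medians on the same side as the osteoclast genes and the erythroid list did not (with a transcript length offset its median was on that side too), and none of their members was called. The 11 osteoblast and osteocyte genes had a median log2 fold change of 0.33 (0.37 without library 13), with 9 above 0. Sp7, the transcription factor osterix, was at 17.6 to 28.0 CPM in naïve libraries and at 36.6, 28.6 and 31.6 CPM in contralateral ones. Dmp1, a matrix protein of osteocytes, was at 48.6 to 93.4 CPM against 54.3, 93.6 and 124 CPM, and Phex, an osteocyte peptidase, was at 33.8 to 70.4 CPM against 62.6, 71.6 and 86.9 CPM. For both, libraries 14 and 15 lay above the naïve range and library 13 inside it. The summed level of the list was 699 to 1027 CPM in naïve libraries and 776, 1071 and 1240 CPM in libraries 13, 14 and 15, with Ibsp as its gene of highest CPM.

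The 13 neutrophil and marrow myeloid genes had a median of 0.18 (0.33 without library 13), 11 of them above 0. Their summed level was 11864 to 17590 CPM in naïve libraries against 13293, 18925 and 16963 CPM. The 12 macrophage genes had a median of 0.19 (0.09) and summed to 2259 to 3015 CPM against 2566, 3563 and 3029 CPM. Library 14 was thus the highest of the 9 for both lists. The 9 T and NK cell genes had a median of 0.30 (0.23), at summed levels of 36.2 to 67.2 CPM against 76.5, 63.3 and 62.1 CPM. The 11 erythroid genes tested had a median of -0.06 (-0.14), which was 0.23 with a transcript length offset, and the haemoglobin genes lifted the sum of library 13 to 65204 CPM, where naïve libraries were at 31332 to 41915 CPM and libraries 14 and 15 at 29749 and 31918 CPM.

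Muscle and vessel wall genes lay on the other side. The 15 skeletal muscle genes had a median of -0.54 (-0.45 without library 13), with 1 above 0. They summed to 6158 to 19224 CPM in naïve libraries and to 8208, 7872 and 8972 CPM in contralateral ones, and Myh4, a myosin of fast fibres, was at 979 to 3713 CPM in naïve libraries alone. The contralateral sums were inside that wide range. The 8 mural cell genes had a median of -0.40 (-0.51), and 3 of them, Acta2, Tagln and Myh11, which encode contractile proteins of smooth muscle, did not overlap, as 512 of all genes (2.41%) did in the lower direction. Acta2 was at 33.6 to 56.8 CPM in naïve libraries against 29.7, 26.9 and 30.3 CPM, Tagln was at 17.7 to 28.1 CPM against 14.3, 14.9 and 14.6 CPM, and Myh11 was at 28.4 to 51.8 CPM against 26.3, 21.9 and 28.1 CPM. None was called by edgeR (adjusted p 0.283, 0.269 and 0.443). The medians of endothelial, synovial fibroblast and adipocyte genes were 0.02, 0.00 and 0.17 (0.06, -0.04 and 0.05 without library 13). The part of these other tissues in the osteoclast values was not tested.

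**Figure D4:**
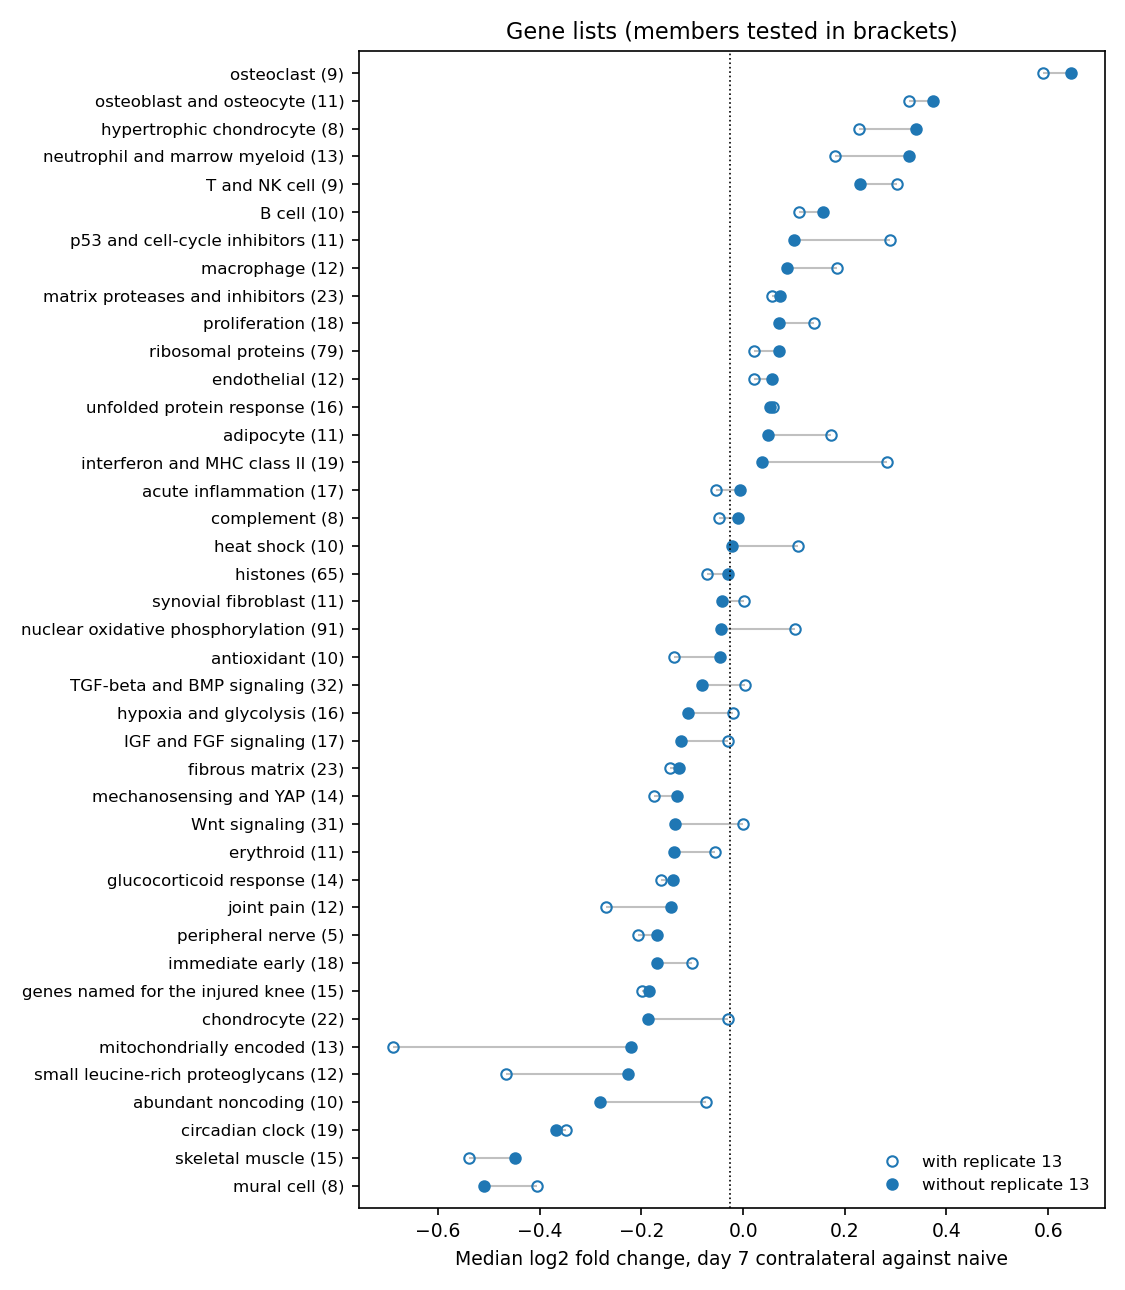
Median log2 fold change of contralateral against naïve knees for each gene list of at least 5 genes tested (the lists gathered after seeing values left out), with all libraries and without library 13, the 2 values of a list joined by a grey line, members tested in brackets and the median over all genes as a dotted line. Osteoclast genes have medians of 0.59 and 0.64, and mitochondrially encoded genes move from -0.69 to -0.22 when library 13 is left out.

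In the cartilage proper, the balance of chondrocyte genes moved with library 13. The 22 genes had a median log2 fold change of -0.03 with library 13 and -0.19 without it, with 10 and 5 above 0, and 0 were called. An unadjusted p of at most 0.05 was reached by 7 genes on the higher side and 2 on the lower with all libraries, and by 9.1% and 6.04% of all genes. Without library 13 it was reached by 0 on either side, and by 2.3% and 3.21% of all genes. Col2a1, which encodes type II collagen, was at 2595 to 4989 CPM in naïve libraries and at 10448, 2739 and 3128 CPM in libraries 13, 14 and 15. Its log2 fold change was 0.75 ± 0.32 with library 13 and -0.15 ± 0.22 without it, so that 1 library set its sign. Acan, which encodes aggrecan, was at 249 to 587 CPM against 448, 278 and 354 CPM, all within the naïve range. Prg4, the lubricin of the cartilage surface, was at 373 to 1409 CPM in naïve libraries and at 240, 414 and 624 CPM in contralateral ones, with a log2 fold change of -0.87 ± 0.45, or -0.59 ± 0.51 without library 13 (edgeR adjusted p 0.366 and 0.942).

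Type I collagen depended on the same library. Col1a1 was at 8545 to 16729 CPM in naïve libraries and at 52440, 15476 and 21550 CPM in contralateral ones, with a log2 fold change of 1.26 ± 0.32 that became 0.57 ± 0.28 without library 13. The 23 fibrous matrix genes as a list had a median of -0.14 (-0.13), which was -0.03 with a transcript length offset. EdgeR called 0 of them, and DESeq2 called Col1a1 and Col1a2. In the injured knees all 23 were called higher, where 9.76% of all genes were, with a median of 2.85. The 12 small leucine-rich proteoglycans, which bind and space collagen fibrils, had a median of -0.47, with 0 above 0, and of -0.23 without library 13. Their summed level was 1721 to 2646 CPM in naïve libraries against 1112, 1714 and 2003 CPM, library 13 being the lowest of all.

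Hypertrophic chondrocyte genes, which mark the cells next to bone, had a median of 0.23 (0.34 without library 13). Mmp13, the collagenase of these cells and of osteoarthritic cartilage, was at 177 to 456 CPM in naïve libraries around a median of 251, and at 387, 502 and 497 CPM in contralateral ones. Its log2 fold change was 0.75 ± 0.22 with library 13 and 0.86 ± 0.24 without it (edgeR adjusted p 0.248 and 0.745). In the injured knees it was 0.86 ± 0.22 against the same naïve libraries (adjusted p 0.00755). Col10a1, the collagen that defines hypertrophy, was at 209 to 595 CPM against 478, 503 and 433 CPM, inside the naïve range.

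Genes of the injured knee were then examined in the contralateral one. Most are named in the text of the study, while C1qtnf3, Lrrc15, Cytl1 and Lamc3 are not and were taken in with earlier results of these data known. Of 15 genes, 0 were called, 0 reached an unadjusted p of at most 0.05, and the median log2 fold change was -0.20 (-0.19 without library 13). In the injured knees of the same day 12 of the 15 were called higher than naïve and 2 lower, where 9.76% and 5.57% of all genes were. The list was chosen on those samples, so that count is not independent evidence of direction. Postn, a matrix protein of repairing connective tissue, was at 82.9 to 305 CPM in naïve libraries and at 46.4, 94.9 and 117 CPM in contralateral ones, while the 3 injured libraries averaged 2821 CPM. C1qtnf3, a secreted protein of cartilage, was at 5.37 to 12.3 CPM against 4.68, 7.44 and 8.08 CPM, and the injured mean was 721 CPM. Lrrc15, a membrane protein of activated fibroblasts, was at 2.19 to 6.32 CPM against 1.95, 1.47 and 5.41 CPM, and the injured mean was 144 CPM. None of the 3 had a contralateral library above the naïve range. Loxl2, which crosslinks collagen, had a log2 fold change of 0.02 ± 0.18 in the contralateral knee, an interval of 0.784-fold to 1.31-fold, against 2.86 ± 0.17 in the injured knee. Fyn, a Src family kinase, was the only member whose groups did not overlap (1.92% of all genes in that direction), at 31.2 to 39.2 CPM against 41.7, 41.1 and 40.8 CPM, a log2 fold change of 0.15 ± 0.09.

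**Figure D5:**
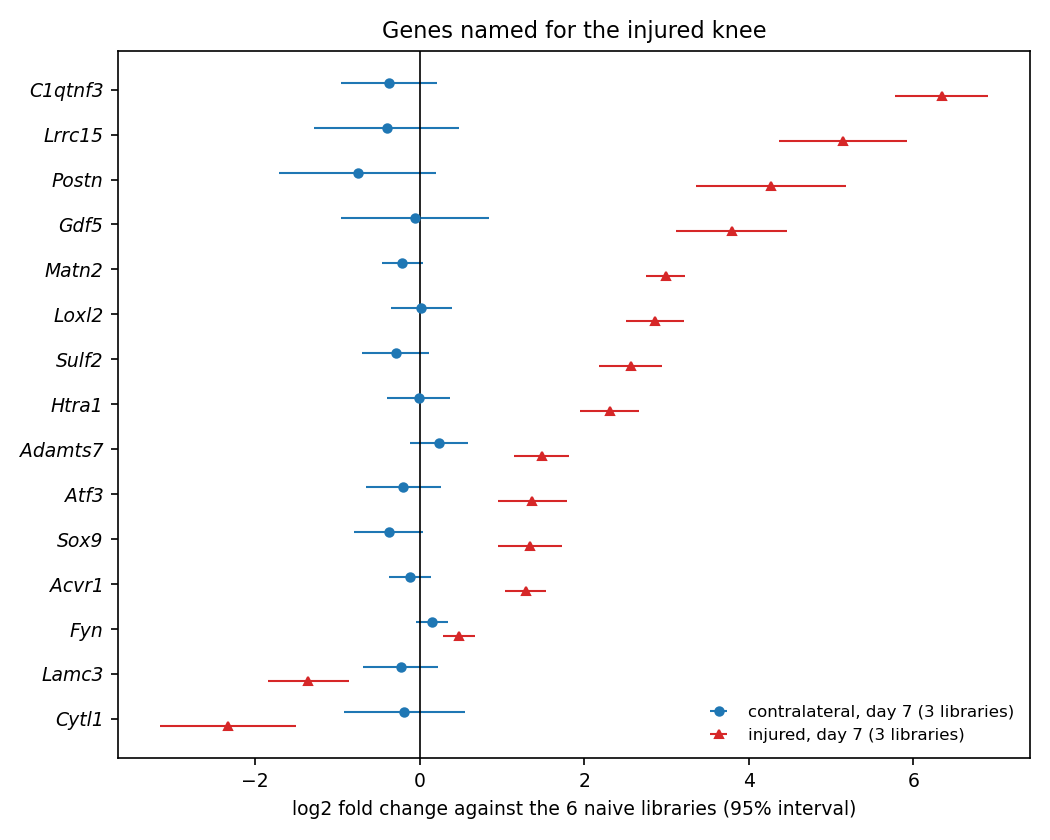
Log2 fold change against the 6 naïve libraries, with 95% intervals, for 15 genes of the injured knee, in contralateral and in injured knees of day 7, which share those naïve libraries. Contralateral values lie between -0.75 and 0.24, while C1qtnf3 reaches 6.35 in the injured knee.

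Inflammation and pain genes gave no call. The 17 acute inflammation genes had a median of -0.05 (-0.01 without library 13), and 0 reached an unadjusted p of at most 0.05. Ptgs2, the inducible cyclooxygenase, was at 1.35 to 7.12 CPM in naïve libraries and at 0.701, 2.59 and 3.21 CPM in contralateral ones, an interval of 0.269-fold to 2.30-fold that bounds little. Of 15 genes of joint pain, 12 could be tested, with a median of -0.27 (-0.14). An unadjusted p of at most 0.05 was reached on the lower side by 1 of them, where 6.04% of all genes were. Without library 13 it was reached on that side by 3, where 3.21% of all genes were, and in both settings by 0 on the higher side. Bdkrb2, the bradykinin receptor, was at 0.499 to 1.31 CPM in naïve libraries and at 0.0779, 0.401 and 0.203 CPM in contralateral ones, which do not overlap (log2 fold change -1.66 ± 0.57, or -1.40 ± 0.63 without library 13, edgeR adjusted p 0.248 and 0.892). At those levels few reads stand behind each value.

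Clock genes had a median of -0.35 (-0.37 without library 13) over 19 members, 2 of them above 0 and none called. An unadjusted p of at most 0.05 in edgeR was reached on the lower side by 4, where 6.04% of all genes were. Without library 13 it was reached on that side by 3, where 3.21% of all genes were, and in both settings by 0 on the higher side. Groups without overlap on the lower side were seen for 1 of the 19 and for 2.41% of all genes. Per2, a repressor of the clock, was at 12.3 to 30.5 CPM in naïve libraries against 8.18, 12.0 and 14.9 CPM, with 1 of the 3 contralateral values inside the naïve range. The hour of tissue collection is not given in the sources used here, so its part in these values was not tested.

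Grouped here are 17 further lists with at least 5 genes tested, and others, such as mitochondrially encoded genes, come at the end. Among the 17 are TGF-beta and BMP signaling, Wnt signaling, the unfolded protein response, the glucocorticoid response and proliferation. Their medians lay between -0.21 (peripheral nerve) and 0.29 (p53 and cell-cycle inhibitors), and edgeR called 0 of the genes in the 17 lists. With a transcript length offset the peripheral nerve median was -0.002. Without library 13 the medians lay between -0.17 (immediate early genes and peripheral nerve) and 0.16 (B cell), and that of the p53 and cell-cycle inhibitors was 0.10. Those of heat shock and antioxidant genes went from 0.11 and -0.14 to -0.02 and -0.05. For the keratinocyte list 1 of 6 genes was abundant enough to test, with a log2 fold change of 0.45 (0.29 without library 13).

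Apart from the lists, 10 genes in each direction were named by the smallest p without library 13 among those whose groups did not overlap. Those on the higher side were Gpr137b, Mst1r, Slc9b2, Ctsk, Grk3, C77080, Angpt4, Tgfbr1, Mmp9 and Ckb. EdgeR called none of them and DESeq2 called Mst1r, Slc9b2, Ctsk and Ckb, and the rule chose all of them for their separation. Grk3, a kinase that silences active G protein-coupled receptors, was at 26.4 to 32.0 CPM in naïve libraries and at 37.7, 38.0 and 38.2 CPM in contralateral ones. Gpr137b, a lysosomal membrane protein, was at 26.0 to 30.5 CPM against 30.9, 39.3 and 38.9 CPM, and Tgfbr1, the type I receptor of TGF-beta, was at 82.1 to 94.6 CPM against 98.7, 106 and 121 CPM. Their log2 fold changes were 0.38 ± 0.08, 0.34 ± 0.09 and 0.27 ± 0.08, and 0.38, 0.44 and 0.33 without library 13. With all libraries these are differences of 1.21-fold to 1.30-fold.

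On the lower side, again with no call by edgeR, the rule gave AC127342.1, Gm47355, Gm15261, Gm16299, D430001F17Rik, Pcp2, Morc1, Gm14567, Lrrtm2 and Casc1, most of them gene models of low abundance. DESeq2 called Gm47355, Gm15261, Gm16299, Lrrtm2 and Casc1. Gm47355 was at 2.85 to 4.42 CPM in naïve libraries and at 1.95, 1.83 and 1.86 CPM in contralateral ones, with a log2 fold change of -0.98 ± 0.19. D430001F17Rik was at 0.380 to 0.840 CPM against 0.0779, 0.178 and 0.169 CPM. Casc1 was at 1.55 to 2.86 CPM against 0.39, 1.11 and 0.980 CPM. Whether counting used strand is not stated in the sources, so reads of gene models that overlap another gene are uncertain.

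The 31 genes called by DESeq2 each had an adjusted p of 0.248 in edgeR. Of the 18 higher ones 15 had groups without overlap (1.92% of all genes), and in 15 library 13 was the highest of the 3. Of the 13 lower ones 12 did not overlap (2.41% of all genes), and in 8 library 13 was the lowest. A call by DESeq2 favours separated groups, so these counts are a description only. The higher ones included Ctsk, Ckb, Slc9b2, Siglec15 and Atp6v1b2, along with Col1a1 and Col1a2. Atp6v1b2, a proton pump subunit, was at 133 to 169 CPM in naïve libraries and at 341, 203 and 187 CPM in contralateral ones, with a log2 fold change of 0.63 that was 0.31 without library 13. Gm15491 and Gm26571, gene models of low abundance, went from 4.35 and 1.90 to 0.63 and 0.66 in edgeR when library 13 was left out. Without library 13, DESeq2 called 1 gene, Mst1r, the receptor of macrophage stimulating protein, with a log2 fold change of 0.73 and a DESeq2 adjusted p of 0.0298. In edgeR's CPM it was at 5.04 to 7.13 in naïve libraries and at 7.17, 9.54 and 10.8 in libraries 13, 14 and 15.

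Lastly, contralateral knees of day 7 were compared with contralateral knees of day 1, a test in which the naïve libraries do not enter the difference. EdgeR called 3 genes higher at day 7 (0.0141%) and 1 lower (0.0047%), each with an adjusted p of 0.0457. Those higher were Ckb, with a log2 fold change of 1.21, Bambi, a decoy receptor of the TGF-beta family, with 0.86, and C77080 with 0.81. The lower one was Gm14567, a gene model with at most 4 counts in any day 7 contralateral library, with -3.49. Against naïve, the day 7 values were 0.80 ± 0.15 for Ckb, 0.49 ± 0.12 for Bambi and 0.51 ± 0.11 for C77080, and the day 1 values were -0.41, -0.37 and -0.30. For these 3 genes the called difference thus adds a day 1 estimate below naïve to a day 7 estimate above it. EdgeR called neither difference from naïve in any of the 3 (adjusted p 0.248 at day 7 and 0.999981 at day 1). Gm14567 had the reverse order, at 0.91 on day 1 and -2.58 on day 7. Without library 13 no gene was called in this comparison (0% in either direction), and the adjusted p of the 4 genes was 0.121.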

How the data were processed

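RNA of pooled femoral cartilage was sequenced as ribosome-depleted stranded libraries. The authors trimmed reads with Trimmomatic and quantified transcripts with Kallisto against the mouse transcriptome (GRCm38). Per the labels' processing notes the build was GRCh38, but all identifiers are mouse ones. The deposited files hold estimated counts, effective lengths and TPM (length-corrected transcript shares) for each of 137436 transcripts. The TPM values and lengths deposited by the authors were used in no main test (lengths only as an offset in an alternative).

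Estimated counts were summed per gene through GENCODE vM21 (GRCm38), which matched 135107 transcripts (98.3%), and rounded, giving 49184 genes. Unmatched transcripts held 0.667% to 3.90% of a library. Gene-wise tests used edgeR 4.0.16 (filterByExpr, TMM, quasi-likelihood) in R 4.3.3 over all 18 libraries with a mean per group, Benjamini-Hochberg adjustment, an adjusted p of at most 0.05 and 1.5-fold. DESeq2 1.42.0, limma 3.58.1 (limma-voom, which the study ran with a correlation for samples of the same mouse pool, not fitted here since the labels do not give the pools), other normalisations, no filter and each of the 9 libraries left out were alternatives. Test scripts were tested on simulated data. CPM are edgeR's, not corrected for length, so levels were not compared between genes.

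Libraries count pools of animals, and p-values measure the spread between pools. Each naïve pool shares mice with another, which the tests did not take into account. Replicate numbers in the labels are library numbers. Contralateral and naïve libraries were chosen by label, with earlier results of these data known, as were the gene lists. Genes were named as called genes, the list members of highest CPM, the genes of largest share in library 13 and, since edgeR called none, up to 10 in each direction with the smallest p without library 13 among those whose groups did not overlap. Other members were named for their role in a list, after their values were seen. Sequences are not shown, since edgeR called no gene between contralateral and naïve knees.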

Additional observations from a re-analysis of the deposited data

Results flagged for a closer look

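Among the naïve libraries, 1 library lay far from the other 5 (Dixon's test at 95%) for 14 of 156 values examined. Chance alone gives such a gap in about 1 of 20 groups. Library 9 was the highest for Alpl, which encodes the alkaline phosphatase of mineralising cells (157.8 CPM), for Col2a1 (4989 CPM) and for Hba-a2, an alpha globin gene (13612 CPM). Library 11 was the highest for Csf1 (79.7 CPM), Nfkb2 (37.0 CPM), Tnfrsf11a (40.5 CPM) and the myeloid receptor gene Trem2 (19.5 CPM). Library 7 was the lowest for Csf1r (154 CPM) and the proton pump subunit gene Atp6v0c (118 CPM) and the highest for Gm16299 (2.47 CPM). Library 10 was the lowest for Fyn (31.2 CPM) and the highest for Loxl2 (114 CPM). Library 8 was the highest for Ighm, the heavy chain of immunoglobulin M (440 CPM), and for Prx, a protein of myelinating Schwann cells (8.08 CPM).

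The contralateral knees of day 7 and day 1 differed by the test of that difference in 4 genes, all read with library 13 included. The log2 differences were 1.21 for Ckb, 0.863 for Bambi, 0.815 for C77080 and -3.49 for Gm14567. With library 13 left out, edgeR's adjusted p was 0.121 for each.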

How the results depend on the processing

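The count of 0 genes called against naïve was 0 with each contralateral or naïve library left out in turn, every normalisation, no filter, limma-voom and quality weights. In some of these settings the lowest adjusted p was nearer the threshold. It was 0.059 in limma-voom with quality weights. In edgeR it was 0.068 without library 15, 0.083 with no filter and 0.094 without library 14. It was 31 with DESeq2, 1 with DESeq2 without library 13 and 0 with limma-voom without library 13 (the last pair of settings, and library measures without library 13, were added after seeing the data). Genes with an unadjusted p of at most 0.05, 3220 in the fit reported, were 1201 to 4487 with 1 library left out, 2082 with only the 2 groups fitted, 1065 with those groups and no library 13, 1058 with DESeq2 and 1132 with limma-voom, both without library 13. The count of genes whose interval excluded a change was 9300 for 1.5-fold in place of 15000 for 2-fold. The comparison with day 1 went from 4 calls to 0 without library 13. Without that library the difference in total counts turned to 1585350 and that in the top-10 share to -2.23. Under another scaling (RLE, upper quartile or a transcript length offset) the median changed sign for the chondrocyte, erythroid, endothelial, synovial fibroblast, ribosomal protein, abundant noncoding, TGF-beta and BMP, Wnt, and IGF and FGF lists, all of them near 0 as reported. The causes were not tested. No paired analysis was possible because replicate numbers are library numbers that no 2 groups share. Pools of few mice, the uneven library 13 and counts of few reads for the low genes limit what can be resolved.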

Other observations

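Some interferon response genes varied widely among the naïve libraries. Irf7, the transcription factor that drives them, ran from 26.3 to 224 CPM in naïve libraries and was at 149, 123 and 113 CPM in libraries 13, 14 and 15. Isg15, a ubiquitin-like protein induced by interferon, ran from 14.6 to 105 CPM against 139, 46.2 and 42.8 CPM. The 19 genes of interferon and MHC class II had a median log2 fold change of 0.28 with library 13 and 0.04 without it, and 0 were called. Their summed level was 766 to 2404 CPM in naïve libraries against 2505, 1573 and 1537 CPM. The chemokine gene Ccl2 was at 0.415 to 17.9 CPM in naïve libraries against 0.468, 0.624 and 1.08 CPM.

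Library 13 held single genes at levels seen in no other library of either group. Klf1, the erythroid transcription factor, was at 88.5 CPM there, at most 6.45 CPM in naïve libraries and at 0.0891 and 0.270 CPM in libraries 14 and 15. Tead1, a transcription factor of the YAP pathway, was at 1.64 CPM in library 13, against 18.2 to 51.2 CPM in naïve libraries, 22.6 in library 14 and 22.0 in library 15. The 91 nuclear genes of oxidative phosphorylation had a median log2 fold change of 0.10 with library 13 and -0.04 without it, where the 13 mitochondrially encoded genes had -0.69 and -0.22. The 79 ribosomal protein genes tested had medians of 0.02 and 0.07, and the 10 abundant noncoding genes tested had medians of -0.07 and -0.28.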
